A study of Mus musculus with 12 samples.

Results

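The genes described here are 8 genes of glutamate release from the photoreceptor terminal, namely Slc17a7, Syp, Vamp2, Snap25, Stx3, Cplx3, Cplx4 and Dlg4. They were selected by name from the 52962 genes of the deposited count table, and each passed the filter on low counts that left 20267 genes. Each was measured in 12 libraries of mouse rods, the photoreceptors that serve dim-light vision. The libraries formed 4 groups of 3. The first group had received an shRNA against mouse Csnk2a1 (shRNA mCsnk2a1), and its comparison group a control shRNA (shRNA Control). The third had received the expression vector pcDNA4c with mouse Csnk2a1 (pcDNA4c mCsnk2a1), and its comparison group pcDNA4c as control (pcDNA4c Control). Csnk2a1 encodes the alpha catalytic subunit of the kinase CK2, and the series asked how this kinase bears on rod gene expression driven by the transcription factor NRL.

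All 12 libraries came from electroporated retina taken at postnatal day 8, dissociated with papain. Rods carrying GFP were picked singly by hand, and 50 to 100 cells were used per library. The promoters that drove GFP, the hairpins and the vector insert are not given in the sources used here, nor is the mouse strain. The labels call the 3 RNA samples of a treatment independent but do not say that they came from separate animals, so a p-value here reflects only how much these samples varied, and that variation may be technical.

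Photoreceptors release glutamate from synaptic ribbons, plates that hold vesicles near the membrane, and they do so continuously in the dark. A vesicle is filled by a transporter, docks, and fuses when a SNARE on the vesicle zips up with SNAREs on the plasma membrane, while complexins bind the assembled SNAREs and set how readily fusion follows. In the mouse the second postnatal week is when the rod terminal forms its ribbon and its contacts in the outer plexiform layer. Slc17a7 (VGLUT1) loads glutamate into vesicles, and Syp (synaptophysin) is a major protein of the vesicle membrane. Vamp2 (synaptobrevin 2) is the vesicle SNARE, and Snap25 and Stx3 (syntaxin 3) are its partners on the plasma membrane. Cplx3 and Cplx4 are the complexins of retinal ribbon synapses. Dlg4 (PSD-95) is a scaffold that lies under the membrane of the photoreceptor terminal.

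Both plasma membrane SNARE genes are spliced with alternative exons, and the results on transcripts below turn on them. In Snap25, exon 5 comes in a form a and a form b, which code for part of the first SNARE helix and the adjoining cysteines that anchor the protein. In mouse brain SNAP25a prevails early in development and SNAP25b later. The exons are 118 bases long, differ at 31 positions and lie in tandem on GRCm38 (mm10), form a at chr2:136769743-136769860 and form b at chr2:136770057-136770174, on the plus strand. In Stx3, exon 9 codes for part of the SNARE motif in a syntaxin 3B type, the form known from retinal ribbon synapses, and a syntaxin 3A type, known from kidney. These exons are 111 bases long, differ at 43 positions and lie on the minus strand, the 3B type at chr19:11782800-11782910 and the 3A type at chr19:11783026-11783136. The sequences were read from GENCODE M21 transcripts and are given 5′ to 3′, with the bases that differ within each pair in capitals.
Snap25 exon 5a: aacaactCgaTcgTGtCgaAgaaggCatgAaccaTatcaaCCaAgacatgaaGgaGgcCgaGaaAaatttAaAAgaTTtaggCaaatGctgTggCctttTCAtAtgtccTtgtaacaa
Snap25 exon 5b: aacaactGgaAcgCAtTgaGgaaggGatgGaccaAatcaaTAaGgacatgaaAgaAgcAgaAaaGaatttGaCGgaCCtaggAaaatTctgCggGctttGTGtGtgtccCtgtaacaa
Stx3 exon 9, 3B type: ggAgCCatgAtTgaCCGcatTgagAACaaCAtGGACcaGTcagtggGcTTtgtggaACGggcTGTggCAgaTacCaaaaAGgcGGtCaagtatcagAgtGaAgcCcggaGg
Stx3 exon 9, 3A type: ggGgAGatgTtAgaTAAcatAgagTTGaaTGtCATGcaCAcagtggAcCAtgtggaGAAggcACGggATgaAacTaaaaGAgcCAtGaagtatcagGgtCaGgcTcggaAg

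Depth differed between the groups compared. Estimated counts summed to 2840426 to 3567121 in shRNA mCsnk2a1, against 1608926 to 1856775 in shRNA Control, and to 2296056 to 3551328 in pcDNA4c mCsnk2a1, against 1692419 to 2017623 in pcDNA4c Control. Genes detected were 16164 to 18782 in pcDNA4c mCsnk2a1, against 22688 to 25326 in pcDNA4c Control, and 17566 to 20682 in shRNA mCsnk2a1, against 20352 to 22146 in shRNA Control. The part of depth in the differences below was not tested. Across libraries, the 8 genes had 73 to 2965 counts each in a library. The biological coefficient of variation over all genes was 1.26. Mitochondrial genes held 10.1% to 11.4% of counts in shRNA mCsnk2a1, against 8.26% to 8.69% in shRNA Control, and 9.54% to 12.8% in pcDNA4c mCsnk2a1, against 7.31% to 8.64% in pcDNA4c Control. Csnk2a1 itself had 12.0, 22.2 and 36.0 CPM (counts scaled to a common library size, with TMM scaling between libraries) in shRNA mCsnk2a1, against 66.9, 57.2 and 8.51 CPM in shRNA Control. It averaged 23.4 ± 12.0 CPM in shRNA mCsnk2a1 and 44.2 ± 31.3 CPM in shRNA Control, with edgeR adjusted p = 0.905. Its levels were 49.9, 145 and 122 CPM in pcDNA4c mCsnk2a1, against 86.6, 25.0 and 28.3 CPM in pcDNA4c Control. It averaged 105 ± 49.5 CPM in pcDNA4c mCsnk2a1 and 46.6 ± 34.7 CPM in pcDNA4c Control (SD, n = 3 each; edgeR adjusted p = 0.801). The groups overlapped and neither difference passed the test, so knockdown and overexpression below name the construct and not a measured change of its target.

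Rod markers were present throughout: a list of 14 summed to between 7340 and 18333 CPM per library, with no marker at 0 in all libraries of a group. Markers of other cell types were also detected, and whether their RNA came from such cells or from the picked rods was not tested. The 13 microglia markers summed to 2728 to 3276 CPM in pcDNA4c Control and to 10.2 to 93.0 CPM in the other 9 libraries. The 10 bipolar cell markers summed to 803 to 1058 CPM in pcDNA4c mCsnk2a1, against 170 to 293 CPM in pcDNA4c Control, and to 885 to 1881 CPM in shRNA mCsnk2a1, against 489 to 629 CPM in shRNA Control. The 10 Mueller glia markers summed to 1098 to 1640 CPM in shRNA mCsnk2a1, against 564 to 907 CPM in shRNA Control, and to 628 to 707 CPM in pcDNA4c mCsnk2a1, against 1246 to 1629 CPM in pcDNA4c Control. The 9 cone markers summed to 334 to 497 CPM in shRNA mCsnk2a1, against 187 to 208 CPM in shRNA Control, and to 118 to 166 CPM in pcDNA4c mCsnk2a1, against 242 to 320.5 CPM in pcDNA4c Control. In summed CPM both lists thus lay on the higher side with the shRNA and on the lower side with the vector, without overlap. Single markers did not all follow these sums. With the vector 7 of the 10 Mueller glia markers had fitted differences above 0 (median log2 0.72), while Apoe was called lower. In TPM the cone marker sum was 94.1 ± 20.3 in pcDNA4c mCsnk2a1 and 65.2 ± 16.7 in pcDNA4c Control (SD, n = 3 each). Bipolar cells also form ribbon synapses and use several of the genes described here, and fewer cells of a type and less RNA per cell cannot be told apart in such samples.

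On average over the 12 libraries, Snap25 and Syp were the most abundant of the 8 genes, and the 2 complexins and Slc17a7 were the least. Levels of different genes are compared per length, as TPM (a length-corrected share of transcripts) summed over each gene's transcripts. Snap25 had 71.2 TPM in the lowest of the 12 libraries, a median of 87.8 and 290.4 in the highest. Syp had 57.1, 96.5 and 231 TPM, Stx3 38.0, 66.9 and 124 TPM, and Dlg4 31.2, 64.8 and 141 TPM for the lowest, median and highest library. These 4 genes form the upper part of the order, and the ranges of neighbours overlap widely. Vamp2 followed with 22.1, 40.0 and 63.2 TPM, then Cplx4 with 19.9, 31.4 and 53.8 TPM. Slc17a7 had 16.7, 28.6 and 62.0 TPM and Cplx3 9.98, 16.1 and 40.2 TPM. Within libraries, Syp exceeded Stx3 in 12 of 12, and Dlg4 exceeded Vamp2 in 10 of 12. The difference between Syp and Stx3 averaged 33.4 TPM with an SD of 29.3 over libraries. For each of the other pairs of neighbours the mean difference was smaller than its SD over libraries, from 32.1 TPM with an SD of 38.8 for Dlg4 and Vamp2 to 1.66 TPM with an SD of 14.7 for Cplx4 and Slc17a7. The order within those pairs varied between libraries, with the first gene higher in 8 or 10 of 12, and was not tested.

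With the shRNA against Csnk2a1, 7 of the 8 genes had higher fitted levels than in shRNA Control, and Slc17a7 differed most. No gene passed the test. Summed over the 8 genes, the level was 2291 ± 394 CPM in shRNA mCsnk2a1 and 1388 ± 287 CPM in shRNA Control (SD, n = 3 each), a log2 ratio of 0.72. On the gene-summed TPM scale this log2 ratio was 0.30, and the 7 genes had differences between 0.10 (Cplx4) and 0.83 (Slc17a7) there, each smaller than on the CPM scale by over 1.5 times. The median log2 difference of the 8 genes was 0.68, beside -0.03 over all genes tested, and 48.9% of all genes lay above 0. The edgeR quasi-likelihood test called 0 of the 8 genes at an adjusted p under 0.05, as it called 0% of all genes, and DESeq2 called 0 of the 8. At an unadjusted p under 0.05 it held 1 of the 8, beside 8.33% of all genes. In CPM the 3 shRNA mCsnk2a1 libraries all lay above the 3 shRNA Control libraries in 3 of the 8, Slc17a7, Syp and Vamp2. That was so of 5.61% of all genes.

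**Figure D1:**
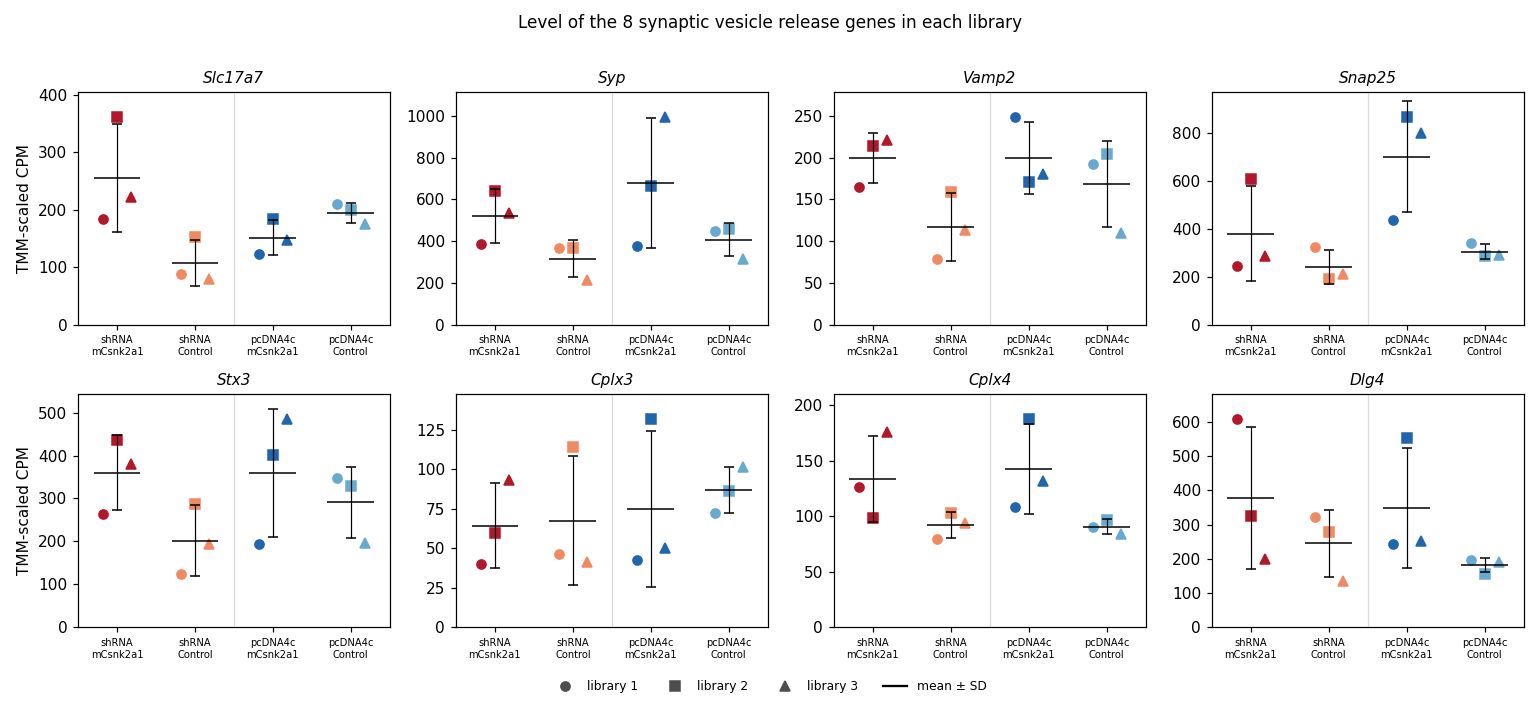
TMM-scaled CPM (vertical axes, from 0) of the 8 genes in the 12 libraries, with a symbol for each library and the mean ± SD of each group of 3. The shRNA mCsnk2a1 points lie above all shRNA Control points for Slc17a7, Syp and Vamp2, and the pcDNA4c mCsnk2a1 points above all pcDNA4c Control points for Snap25, Cplx4 and Dlg4.

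In CPM the groups did not overlap in any of the 3 vesicle genes, but in gene-summed TPM they overlapped in all 3. There the lowest shRNA mCsnk2a1 library was at 29.1 TPM for Slc17a7, 77.1 for Syp and 34.8 for Vamp2. The highest shRNA Control library was at 34.0, 104 and 47.5 TPM in the same order. Slc17a7, the glutamate transporter (ENSMUSG00000070570, chromosome 7, 45163949 to 45176142), had 184, 362 and 222 CPM in shRNA mCsnk2a1, against 88.7, 152 and 80.0 CPM in shRNA Control. Library 2 was highest in both groups, and no library overlapped. The log2 difference was 1.26 (SE 0.48, edgeR adjusted p = 0.598, unadjusted p = 0.0174). Syp (ENSMUSG00000031144, chromosome X, 7638471 to 7653256) had 384, 639 and 537 CPM, against 366.1, 366.2 and 214 CPM in the same groups. The lowest shRNA mCsnk2a1 library was only just above the highest control library, and the log2 difference was 0.72 (SE 0.40, edgeR adjusted p = 0.649). Vamp2 (ENSMUSG00000020894, chromosome 11, 69088490 to 69092384) had 165, 214 and 221 CPM in shRNA mCsnk2a1, against 78.3, 159 and 113 CPM in shRNA Control. Here too a narrow gap parted the groups, and the log2 difference was 0.77 (SE 0.48, edgeR adjusted p = 0.712). For each of these 3 genes the exact permutation test on CPM gave p = 0.1, the smallest that 3 against 3 libraries allow.

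The SNAREs of the plasma membrane had higher means with overlapping libraries. Snap25 (ENSMUSG00000027273, chromosome 2, 136713453 to 136782428) had 245, 609 and 286 CPM in shRNA mCsnk2a1, against 324, 193 and 212 CPM in shRNA Control. Library 2 alone stood above every control, and without it the log2 difference was 0.13, against 0.65 with all libraries (SE 0.42, edgeR adjusted p = 0.745). Stx3 (ENSMUSG00000041488, chromosome 19, 11775118 to 11819403) had 264, 436 and 380.5 CPM in shRNA mCsnk2a1, against 123, 288 and 194 CPM in shRNA Control. The highest control library exceeded the lowest shRNA mCsnk2a1 library, and the log2 difference was 0.84 (SE 0.46, edgeR adjusted p = 0.633).

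The complexins and the scaffold showed the smallest differences relative to their spread. Cplx3 (ENSMUSG00000039714, chromosome 9, 57599992 to 57606281) had 40.2, 59.4 and 93.4 CPM in shRNA mCsnk2a1, against 46.7, 114 and 41.4 CPM in shRNA Control. It was the only one of the 8 genes with a fitted difference below 0 (log2 -0.07, SE 0.70, edgeR adjusted p = 1), and that sign turned without library 1 of shRNA mCsnk2a1 (0.20) or library 2 of shRNA Control (0.52). Cplx4 (ENSMUSG00000024519, chromosome 18, 65955722 to 65970237) had 127, 98.2 and 175 CPM in shRNA mCsnk2a1, against 79.8, 103 and 94.2 CPM in shRNA Control, and the fitted log2 difference was 0.53 (SE 0.53, edgeR adjusted p = 0.917). Dlg4 (ENSMUSG00000020886, chromosome 11, 70016942 to 70047522) had 607, 325 and 199.7 CPM in shRNA mCsnk2a1, against 323, 278 and 134 CPM in shRNA Control. Library 1 was highest in both groups, and the groups overlapped. The log2 difference was 0.62 (SE 0.50, edgeR adjusted p = 0.843), and 0.11 without library 1 of shRNA mCsnk2a1.

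Rod markers moved with these levels. All 14 had fitted differences above 0 with the shRNA, none passed, and their sum was 14824 to 18333 CPM in shRNA mCsnk2a1, against 7340 to 10094 CPM in shRNA Control. Set against the rod marker sum, the summed level of the 8 genes was 13.6%, 15.0% and 13.4% in shRNA mCsnk2a1, against 14.2%, 18.9% and 14.8% in shRNA Control. This ratio pools the 8 genes and was not taken for single genes. Bipolar markers were 7 of 10 above 0. The part of rod and bipolar RNA in the differences of the 8 genes was not tested.

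**Figure D2:**
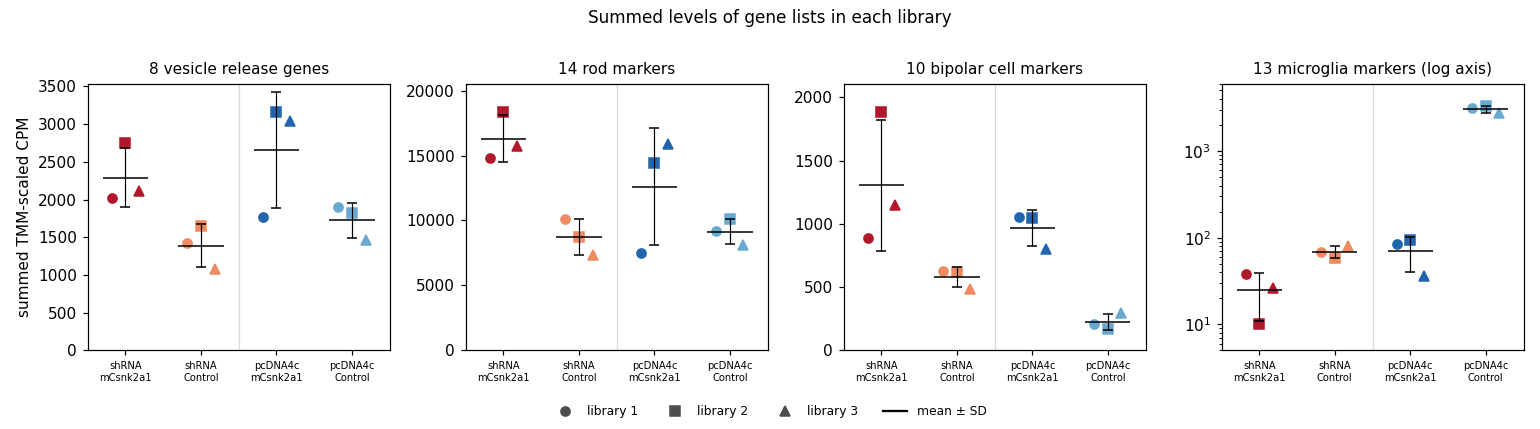
Summed TMM-scaled CPM per library of the 8 release genes, 14 rod markers, 10 bipolar cell markers and 13 microglia markers (last axis logarithmic), with the mean ± SD of each group of 3. The rod marker panel parts shRNA mCsnk2a1 (14824 to 18333) from shRNA Control (7340 to 10094), and the microglia panel sets pcDNA4c Control (2728 to 3276) apart from the other groups.

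With the Csnk2a1 vector, Snap25 differed most, and 6 of the 8 genes had higher fitted levels than in pcDNA4c Control. Here Slc17a7 and Cplx3 were the 2 with lower ones. The summed level of the 8 genes was 2657 ± 766 CPM in pcDNA4c mCsnk2a1 and 1725 ± 232 CPM in pcDNA4c Control (SD, n = 3 each), a log2 ratio of 0.62, and it was 1.03 in gene-summed TPM. Their median log2 difference was 0.48, beside -0.16 over all genes, of which 45.1% lay above 0. The edgeR test called 0 of the 8 genes, beside 0.0987% of all genes, and DESeq2 called 0 of them. At an unadjusted p under 0.05 it held 1 of the 8, beside 8.73% of all genes. In CPM the pcDNA4c mCsnk2a1 libraries of Snap25, Cplx4 and Dlg4 all lay above the pcDNA4c Control libraries, which was so of 3.73% of all genes.

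Snap25 had 437, 868 and 799.6 CPM in pcDNA4c mCsnk2a1, against 340.4, 287 and 289 CPM in pcDNA4c Control. Libraries 2 and 3 were far above all controls and library 1 moderately so, and the log2 difference was 1.20 (SE 0.43, edgeR adjusted p = 0.568, unadjusted p = 0.0115). Its partner Stx3 had 195, 402 and 484 CPM in pcDNA4c mCsnk2a1, against 347, 329 and 197 CPM in pcDNA4c Control. The lowest library of each group was nearly equal, and the log2 difference was 0.31 (SE 0.46, edgeR adjusted p = 0.974). Vamp2 had 249, 170.4 and 179.9 CPM in pcDNA4c mCsnk2a1, against 192, 204 and 109.7 CPM in pcDNA4c Control, and the fitted log2 difference was 0.24 (SE 0.48, edgeR adjusted p = 0.993). Of the SNAREs, then, Snap25 alone had groups that did not overlap in CPM, although differences between the 3 genes were not tested. In gene-summed TPM Vamp2 was apart as well, at 41.4 to 63.2 TPM in pcDNA4c mCsnk2a1, against 22.1 to 38.6 TPM in pcDNA4c Control. How often all genes were apart on that scale was not counted.

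Among the vesicle proteins, Syp had 376, 662 and 995 CPM in pcDNA4c mCsnk2a1, against 449.7, 457 and 315 CPM in pcDNA4c Control. Library 1 lay among the controls and library 3 held the highest Syp level of the series. The log2 difference was 0.74 (SE 0.40, edgeR adjusted p = 0.611), and 0.39 without library 3. In gene-summed TPM the Syp groups were apart, with 90.9 TPM in the lowest pcDNA4c mCsnk2a1 library and 82.2 TPM in the highest pcDNA4c Control library. Slc17a7 had 124, 184 and 147 CPM in pcDNA4c mCsnk2a1, against 209.6, 199 and 175 CPM in pcDNA4c Control. Of the pcDNA4c mCsnk2a1 libraries 1 reached into the control range, and the log2 difference was -0.36 (SE 0.48, edgeR adjusted p = 0.965). In gene-summed TPM the groups were level, at 27.9 ± 5.08 in pcDNA4c mCsnk2a1 and 28.0 ± 1.63 in pcDNA4c Control (SD, n = 3 each).

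Of the complexins, Cplx4 had 108, 187 and 131 CPM in pcDNA4c mCsnk2a1, against 90.5, 97.0 and 83.7 CPM in pcDNA4c Control. The control libraries lay close together and all below, and the log2 difference was 0.65 (SE 0.53, edgeR adjusted p = 0.836). Cplx3 had 42.4, 132 and 50.4 CPM in pcDNA4c mCsnk2a1, against 72.3, 86.5 and 101 CPM in pcDNA4c Control. The pcDNA4c mCsnk2a1 libraries lay on both sides of the controls (log2 difference -0.21, SE 0.70, edgeR adjusted p = 1). The scaffold gene Dlg4 had 244, 551 and 252 CPM in pcDNA4c mCsnk2a1, against 196, 157 and 192 CPM in pcDNA4c Control. All 3 were above the controls, library 2 by most, and the log2 difference was 0.94 (SE 0.50, edgeR adjusted p = 0.592), and 0.47 without library 2 of pcDNA4c mCsnk2a1. Leaving out that library also took Cplx4 to 0.43. For Snap25, Cplx4 and Dlg4 the exact permutation p was 0.1, the smallest possible.

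Library 1 of pcDNA4c mCsnk2a1 had a lower summed level of the 8 genes, 1775 CPM, than the other 2 of its group, and a rod marker sum of 7490 CPM, against 14403 and 15903 CPM in those 2. Without it the summed log2 ratio was 0.84. Set against rod markers, the summed level was 23.7%, 21.9% and 19.1% in pcDNA4c mCsnk2a1, against 20.7%, 18.0% and 17.9% in pcDNA4c Control. The rod marker sum in pcDNA4c Control was 8142 to 10108 CPM, above that of library 1 and below those of the other 2 pcDNA4c mCsnk2a1 libraries. With the vector 10 of 14 rod markers had fitted differences above 0 and none passed, and 10 of 10 bipolar markers lay above 0. Of the 13 microglia markers 3, Lyz2, Spp1 and Mpeg1, were called lower and were at 0 in all 3 pcDNA4c mCsnk2a1 libraries. The part of rod, bipolar and microglia marker RNA in the differences was not tested.

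**Figure D3:**
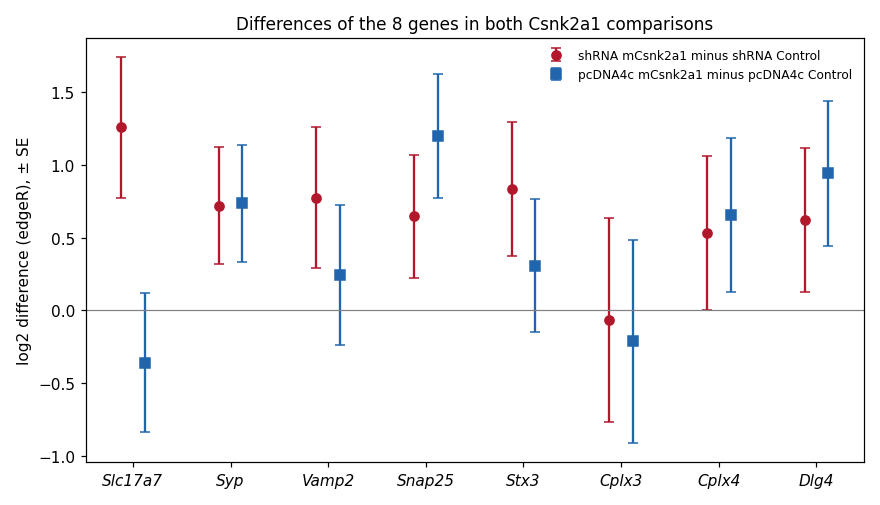
Log2 differences from edgeR with their standard errors (vertical axis) for the 8 genes, shRNA mCsnk2a1 minus shRNA Control beside pcDNA4c mCsnk2a1 minus pcDNA4c Control. Slc17a7 lies at 1.26 and -0.36 and Snap25 at 0.65 and 1.20, and no gene passed in either comparison.

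The effects of the 2 constructs were set against each other directly, as the vector difference minus the shRNA difference. Again 0 of the 8 genes passed, beside 0.0197% of all genes, and DESeq2 called 0 of them. Slc17a7 had the largest difference, -1.62 (SE 0.68, edgeR adjusted p = 0.540, unadjusted p = 0.0274), and was the 1 gene of the 8 with an unadjusted p under 0.05, beside 8.34% of all genes. On gene-summed TPM its difference was -0.85. Vamp2 and Stx3 each came to -0.53, with SEs of 0.68 and 0.65, and Snap25 to 0.55 (SE 0.60). The other 4, Syp, Cplx3, Cplx4 and Dlg4, lay between -0.14 and 0.32. Of the 8 genes 4 lay above 0, beside 47.0% of all genes, and their median was -0.06, beside -0.15 over all genes.

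The control groups were compared in the same way. Of the 8 genes 0 passed between shRNA Control and pcDNA4c Control, beside 0.0691% of all genes, with DESeq2 also calling 0. At an unadjusted p under 0.05 there were 0 of the 8, beside 4.21% of all genes. Slc17a7 was lower in shRNA Control without overlap (107 ± 39.6 CPM in shRNA Control and 194 ± 18.0 CPM in pcDNA4c Control, SD, n = 3 each; log2 difference -0.86, SE 0.48, edgeR adjusted p = 1). In CPM it was the only one of the 8 with groups apart, and 8.56% of all genes were lower without overlap. The median log2 difference of the 8 was -0.37, beside 0 over all genes, and their summed log2 ratio was -0.31 in CPM and 0.31 in TPM. On gene-summed TPM this Slc17a7 difference was -0.31, and its groups overlapped (16.7 to 34.0 TPM in shRNA Control and 26.3 to 29.5 TPM in pcDNA4c Control). On that scale Cplx4 was apart, at 27.7 to 36.4 TPM in shRNA Control, against 19.9 to 21.7 TPM in pcDNA4c Control. The same shRNA Control libraries serve as the control of the shRNA comparison.

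Across all 12 libraries, the highest CPM of each of the 8 genes was found in a library that had received a Csnk2a1 construct. Library 2 of pcDNA4c mCsnk2a1 held the highest CPM of 3 genes and library 3 of that group of 2 more. The lowest CPM fell in shRNA Control for 7 of the 8 genes. How often this was so of all genes was not counted, and TPM gave other extremes. Cplx3 was highest in library 2 of shRNA Control (40.2 TPM). Vamp2, Cplx4 and Dlg4 were lowest in pcDNA4c Control (22.1, 19.9 and 31.2 TPM), and Snap25 and Cplx3 in library 1 of shRNA mCsnk2a1 (71.2 and 9.98 TPM). Spread within groups differed between genes. For Snap25 the coefficient of variation was 33.1% in pcDNA4c mCsnk2a1 and 9.90% in pcDNA4c Control, whereas for Vamp2 it was 21.4% in pcDNA4c mCsnk2a1 and 30.5% in pcDNA4c Control.

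The transcripts showed which forms of the SNAREs these levels were made of. Both forms of Snap25 were present in all 12 libraries. Transcripts with exon a held 56.2% ± 17.5 (SD, n = 12) of the summed TPM of both forms, with a range of 23.5% to 79.8%. For Stx3, transcripts with the 3B-type exon held on average 78.7% of the total over both types in the 12 libraries, from 57.5% to 100%. The form known from ribbon synapses was thus the larger in each of the 12 libraries, and the 3A type was listed at 0 in 1 library. These shares are estimates that rest on few reads per exon. The transcripts differ elsewhere as well, with annotated lengths of 1014 bases for the Snap25 transcript with exon a and 2116 bases for that with exon b.

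With the vector, both forms of Snap25 were higher without overlap, and form a more so. Exon a transcripts had 105, 230.3 and 161 TPM in pcDNA4c mCsnk2a1, against 54.6, 26.2 and 46.4 TPM in pcDNA4c Control. Exon b transcripts had 47.4, 58.3 and 104 TPM in pcDNA4c mCsnk2a1, against 31.3, 45.1 and 30.0 TPM in pcDNA4c Control. Exact permutation gave p = 0.1, the smallest possible, for both. The share of exon a was 68.9%, 79.8% and 60.8% in pcDNA4c mCsnk2a1, against 63.6%, 36.7% and 60.7% in pcDNA4c Control, so the groups overlapped in share (69.8% ± 9.54 and 53.7% ± 14.7, SD, n = 3 each).

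With the shRNA, exon a transcripts of Snap25 had 28.0, 113 and 19.5 TPM in shRNA mCsnk2a1, against 77.0, 30.8 and 64.9 TPM in shRNA Control. Library 2 of shRNA mCsnk2a1 stood above all controls and the other 2 below them (exact permutation p = 0.8). Exon b transcripts had 40.7, 72.1 and 63.5 TPM in shRNA mCsnk2a1, against 52.7, 46.4 and 16.4 TPM in shRNA Control (exact permutation p = 0.3). The share of exon a was 41.7% ± 18.8 in shRNA mCsnk2a1 and 59.7% ± 19.9 in shRNA Control (SD, n = 3 each), with libraries that overlapped.

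**Figure D4:**
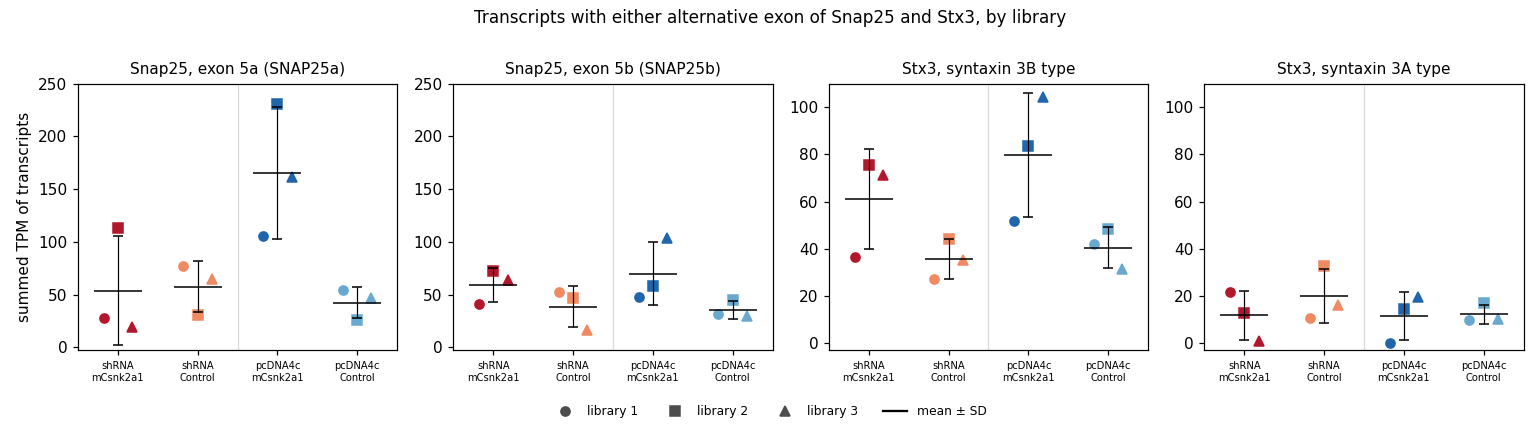
Summed TPM by library of transcripts that carry exon 5a or 5b of Snap25 (left pair, common scale) and the 3B-type or 3A-type exon 9 of Stx3 (right pair, common scale), with the mean ± SD of each group of 3. Snap25 with exon a lies at 105 to 230.3 in pcDNA4c mCsnk2a1, against 26.2 to 54.6 in pcDNA4c Control, and the 3B type of Stx3 exceeds the 3A type in every library.

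The 3B type of Stx3 was also higher with the vector without overlap, at 51.9, 83.7 and 104 TPM in pcDNA4c mCsnk2a1, against 42.0, 48.3 and 31.4 TPM in pcDNA4c Control (exact permutation p = 0.1, the smallest possible). The 3A type had 0, 14.6 and 19.7 TPM in pcDNA4c mCsnk2a1, against 9.77, 16.9 and 10.2 TPM in pcDNA4c Control (exact permutation p = 0.9). As a share, the 3B type came to 100%, 85.1% and 84.1% in pcDNA4c mCsnk2a1, against 81.1%, 74.0% and 75.6% in pcDNA4c Control, again apart with exact permutation p = 0.1.

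In the shRNA comparison the 3B type had 36.7, 75.6 and 71.2 TPM in shRNA mCsnk2a1, against 27.2, 44.4 and 35.4 TPM in shRNA Control (exact permutation p = 0.2). The main 3B transcript, Stx3-203, had 29.8, 71.8 and 71.2 TPM in shRNA mCsnk2a1, against 27.2, 28.0 and 20.2 TPM in shRNA Control, without overlap (exact permutation p = 0.1, the smallest possible). It was 1 of the 8 leading transcripts to be higher without overlap, beside 1.95% of all transcripts with a mean of at least 1 TPM. The 3A type had 21.8, 13.1 and 1.03 TPM in shRNA mCsnk2a1, against 10.8, 32.8 and 16.4 TPM in shRNA Control (exact permutation p = 0.5).

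Cplx4 was almost wholly Cplx4-201 (99.2% of its mean TPM), and Vamp2 mostly Vamp2-201 (90.5%) and Syp mostly Syp-201 (72.7%). With the vector these 3 transcripts were all higher without overlap, with means of 41.5 ± 11.0 TPM in pcDNA4c mCsnk2a1 and 19.5 ± 2.59 TPM in pcDNA4c Control for Cplx4-201. The means were 45.6 ± 5.17 and 26.5 ± 4.73 TPM in the same groups for Vamp2-201, and 108 ± 20.5 and 56.8 ± 11.7 TPM for Syp-201 (SD, n = 3 each; exact permutation p = 0.1 for each, the smallest possible). With the Snap25 transcript of exon a, 4 of the 8 leading transcripts were higher without overlap, beside 3.54% of all transcripts with a mean of at least 1 TPM. At the gene level in CPM, Vamp2 and Syp overlapped in this comparison. With the shRNA the 3 transcripts overlapped. Cplx3-201, 1 of 3 coding transcripts of Cplx3, was lower with the shRNA, at 9.77, 4.56 and 6.57 TPM in shRNA mCsnk2a1, against 13.1, 11.0 and 13.6 TPM in shRNA Control (exact permutation p = 0.1, the smallest possible). Of all transcripts 4.89% were lower without overlap with the shRNA. The control groups were also apart in some of these values, and 5.58% of all transcripts were higher in shRNA Control than in pcDNA4c Control without overlap: Cplx4-201 averaged 31.7 ± 4.37 TPM in shRNA Control and 19.5 ± 2.59 TPM in pcDNA4c Control, Cplx3-201 12.6 ± 1.35 and 6.86 ± 2.94 TPM, and the share of the 3B type of Stx3 65.8% ± 7.37 and 76.9% ± 3.74, in the same order of groups (SD, n = 3 each). The TPM of all 8 genes summed to 434 ± 97.4 in shRNA Control and 351 ± 32.9 in pcDNA4c Control, the lowest of the 4 groups. Retained-intron transcripts held 29.1% of the mean TPM of Slc17a7 and 11.0% of that of Syp. The coding transcript Slc17a7-201 was listed at 0 in 1 shRNA Control library. It had 26.6, 27.0 and 2.87 TPM in shRNA mCsnk2a1, against 15.3, 0 and 14.2 TPM in shRNA Control, with overlap. In pcDNA4c Control it had 26.3, 21.7 and 21.2 TPM, above all shRNA Control libraries. No share of all transcripts is given for that side. Dlg4 was spread over 22 transcripts, of which coding ones held 62.9%.

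The wider release pathway held no gene that passed. Over 7 lists of 129 other genes of vesicles, SNARE regulation, the vesicle proton pump, transmitter transport, endocytosis, the terminal scaffold and the ribbon, 0 genes passed higher and 0 lower in the shRNA comparison, and 0 higher and 0 lower in the vector comparison. At an unadjusted p under 0.05 the lists held 9 of their 124 tested genes with the shRNA, beside 8.33% of all genes, and 6 of 124 with the vector, beside 8.73% of all genes. DESeq2 called 1 of them higher and 1 lower with the shRNA, Slc17a6 and Syn2, and 1 lower with the vector, Rph3a. That is 2 and 1 of the 117 with an adjusted p, and over all genes DESeq2 called 1.10% and 1.56%. These 3 are named after their values were seen.

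Of 26 vesicle proteins 24 were tested, with median log2 differences of 0.09 for the shRNA and 0.05 for the vector. With the shRNA 0 of the 24 were higher without overlap, beside 5.61% of all genes, and 4 were lower. No share of all genes is given here for the lower side, so the 4 cannot be read as more or fewer than usual. With the vector 0 were higher without overlap, beside 3.73% of all genes, and 0 lower. Syt1, the main calcium sensor of release, averaged 376 ± 115 CPM in shRNA mCsnk2a1 and 314 ± 102 CPM in shRNA Control. Sv2b, a vesicle glycoprotein of ribbon terminals, averaged 415 ± 339.9 CPM in shRNA mCsnk2a1 and 134 ± 12.4 CPM in shRNA Control, with a log2 difference of 1.63 (edgeR adjusted p = 0.598). The wide SD shows that its shRNA libraries disagreed. Dnajc5, a vesicle chaperone, averaged 191 ± 147 CPM in pcDNA4c mCsnk2a1 and 94.5 ± 52.6 CPM in pcDNA4c Control (SD, n = 3 throughout).

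Of 26 SNARE partners and regulators 25 were tested, with medians of 0.31 for the shRNA and -0.12 for the vector. Cplx2, the complexin better known from conventional synapses, averaged 558 ± 90.1 CPM in pcDNA4c mCsnk2a1 and 326 ± 32.1 CPM in pcDNA4c Control, without overlap (log2 difference 0.78, SE 0.40, edgeR adjusted p = 0.581). It averaged 249 ± 103 CPM in shRNA mCsnk2a1 and 280.4 ± 33.4 CPM in shRNA Control. Unc13b, a priming factor, averaged 663 ± 614 CPM in shRNA mCsnk2a1 and 279.9 ± 103 CPM in shRNA Control, with adjusted p = 0.603 in edgeR.

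The 16 subunits of the vesicle proton pump, which powers transmitter loading, had medians of 0.49 and -0.26 for the shRNA and the vector. Atp6v0a1 averaged 151 ± 31.3 CPM in shRNA mCsnk2a1 and 65.7 ± 45.1 CPM in shRNA Control, without overlap (edgeR adjusted p = 0.623). Atp6v1a averaged 204 ± 167 CPM in pcDNA4c mCsnk2a1 and 67.0 ± 8.96 CPM in pcDNA4c Control, also without overlap (edgeR adjusted p = 0.568), and Atp6v1b2 averaged 66.4 ± 30.8 CPM in pcDNA4c mCsnk2a1 and 138 ± 53.6 CPM in pcDNA4c Control. Subunits thus went both ways within a comparison. Of 8 genes of glutamate and GABA transport 7 were tested, with medians of -0.11 and -0.23. The glutamate transporter Slc1a2 and the glutamine carrier Slc38a1 each differed by -0.11 with the shRNA.

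The 23 endocytosis genes, which retrieve vesicle membrane after release, had medians of 0.45 and -0.07. Cltc, the clathrin heavy chain, averaged 562 ± 128 CPM in shRNA mCsnk2a1 and 314 ± 84.9 CPM in shRNA Control (edgeR adjusted p = 0.600), and Ap2m1, an adaptor subunit, 474 ± 89.1 and 308 ± 34.2 CPM in the same groups (edgeR adjusted p = 0.689). Both were without overlap, while Bin1 overlapped in both comparisons. Of 17 scaffold and adhesion genes 16 were tested, with medians of -0.04 and 0.10. Dmd averaged 549 ± 292 CPM in shRNA mCsnk2a1 and 735 ± 306 CPM in shRNA Control. Egflam (pikachurin), which links the terminal to bipolar dendrites, averaged 397 ± 274 CPM in pcDNA4c mCsnk2a1 and 130.0 ± 24.0 CPM in pcDNA4c Control, with overlap (log2 difference 1.61, edgeR adjusted p = 0.568). The calcium pump gene Atp2b1 differed by 0.09 and -0.20.

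The 13 ribbon active zone genes had medians of 0.30 for the shRNA and -0.33 for the vector. With the shRNA 5 of the 13 were higher without overlap, beside 5.61% of all genes, and 0 lower. With the vector 0 were higher, beside 3.73% of all genes, and 2 lower. No share of all genes is given for the lower side, so the 2 cannot be read as more or fewer than usual. Unc119, a protein enriched at photoreceptor ribbons, averaged 354 ± 18.3 CPM in shRNA mCsnk2a1 and 176 ± 32.1 CPM in shRNA Control, without overlap (log2 difference 1.01, SE 0.41, edgeR adjusted p = 0.598). The ribbon channel subunit Cacna2d4 averaged 178 ± 42.9 CPM in pcDNA4c mCsnk2a1 and 287 ± 26.0 CPM in pcDNA4c Control, without overlap and lower with the vector (edgeR adjusted p = 0.739). Pclo (piccolo) differed by -0.19 and -0.04.

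**Figure D5:**
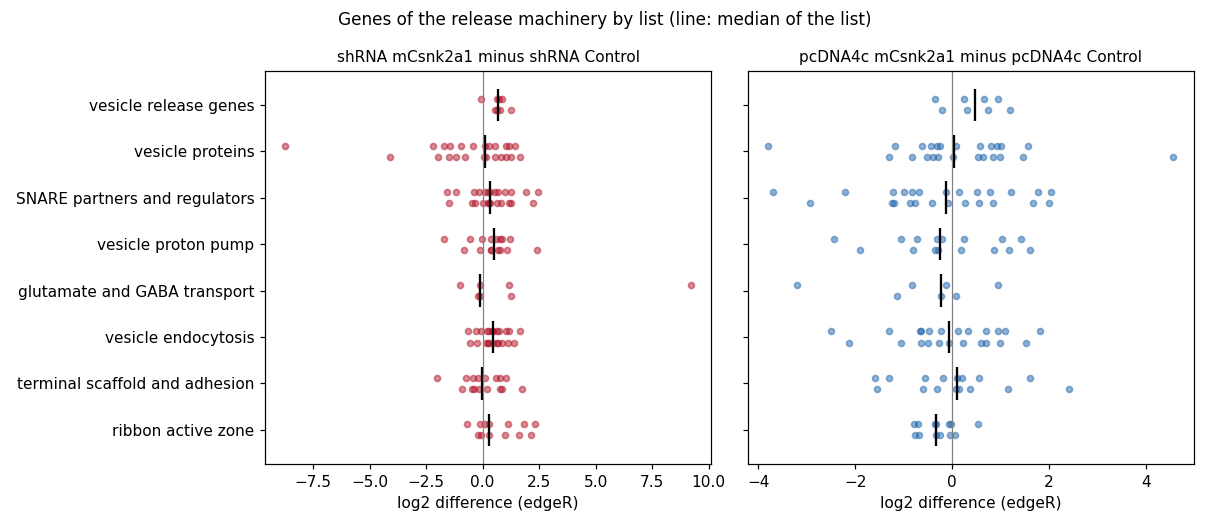
Log2 differences from edgeR (horizontal axes, with different ranges) of the 8 release genes and of the tested genes of 7 related lists, each point a gene and each black line the median of a list. The medians of the release genes are 0.68 for shRNA mCsnk2a1 minus shRNA Control and 0.48 for pcDNA4c mCsnk2a1 minus pcDNA4c Control, and the medians of the other lists lie between -0.11 and 0.49 and between -0.33 and 0.10.

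Pairs of the 8 genes were not uniformly alike across libraries. As a description over 12 libraries that share their depth and composition within a library, Pearson's r of log2 CPM was 0.81 for Syp with Snap25, 0.79 for Syp with Stx3 and 0.73 for Slc17a7 with Stx3. After group means were removed these came to 0.67, 0.70 and 0.70. At the low end it was 0.02 for Vamp2 with Dlg4 and -0.0011 for Cplx3 with Dlg4. Among 3693 coding genes of at least 50 CPM, the gene whose pattern over the 12 libraries was most like Snap25 was Prpf8 (r = 0.96), followed by the rod channel gene Cnga1 (0.91) and mt-Nd5 (0.88). For Syp these were Pkd1 (0.93), Crebbp (0.92) and Hnrnpdl (0.90), for Stx3 Iws1 (0.92), Dnajc18 (0.90) and Kif1bp (0.89), and for Vamp2 Ofd1 (0.92), Lsm14a (0.87) and Knop1 (0.85). Slc17a7 was nearest to Tma7 (0.88), Itfg2 (0.86) and Btrc (0.86), Cplx4 to Kdm5a (0.90), Actg1 (0.86) and Gpm6a (0.85), Dlg4 to Hnrnpf, Thsd7a and Dmxl2 (0.83, 0.83 and 0.82), and Cplx3 to Psmc4, Morc3 and Zfp444 (0.81, 0.76 and 0.75).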

How the data were processed

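Total RNA of the picked rods was made into stranded libraries with a SMARTer Pico kit and read in pairs on an Illumina sequencer, per the labels' protocols. Transcripts were quantified with kallisto 0.45.0, and edgeR 3.28 and build mm10 are also named, per the submitters' processing notes; neither their settings nor an annotation release was found there. Expected counts per gene, not always whole and unscaled between libraries, make up the deposited gene table. The deposited transcript table holds TPM, since its columns sum to that unit's total. A further deposited table gives a scaled signal in CPM units for 11 libraries, and comparisons on it leave out pcDNA4c mCsnk2a1 1. Positions are those of the deposited annotation, and 97.9% of the transcripts were matched to GENCODE M21 (GRCm38).

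Expected counts were rounded and tested in R 4.3.3 with edgeR 4.0.16: filterByExpr with a minimum count of 10, TMM scaling, 1 quasi-likelihood fit of 4 groups over 12 libraries, and Benjamini-Hochberg adjustment over 20267 genes at 0.05. The SE was taken as the absolute log2 difference over the root of the F statistic. Alternatives used DESeq2 1.42.0 and limma 3.58.1. Scripts were tested on simulated data. Single values were compared by two-sided exact permutation of 3 against 3 libraries.

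The 8 genes and all lists were chosen with earlier results of these data known. Sets of transcripts by exon, and the ratio to rod markers, were chosen after seeing the data, as was the mean of at least 1 TPM for the share of all transcripts without overlap. From each list the 3 genes of highest mean CPM, and any that passed, were to be named, as were the 3 coding genes most like each of the 8 (log2 CPM with a prior count of 2); from the marker lists those that passed are named. Some genes that this rule takes in are not reported here. Whether strand was used in counting is not given: Syp overlaps the antisense Gm14703 (at most 33 counts in a library) and Snap25 the pseudogene Gm14053 (at most 83), whose reads may not be told apart from them. PCR copies are not independent molecules.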

Additional observations from a re-analysis of the deposited data

How the results depend on the processing

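None of the 8 genes was called in any of the 4 comparisons under the 22 alternatives tried (21 for the difference between constructs), where the lowest adjusted p was 0.271 for the shRNA, 0.150 for the vector, 0.407 for the difference between constructs and 0.732 between controls. Over all genes the count of calls did depend on the method, and the cause was not tested. For the shRNA (0 calls) it was 93 with no filter, 1 with a replicate block, 2 with limma voom, 5 with limma on the deposited scaled CPM, 1 on gene-summed TPM, 183 with DESeq2, and 0 to 4 with single libraries left out. For the vector (20 calls) it was 111 with no filter, 6 with the comparison's own 6 libraries, 37 with voom, 48 on scaled CPM, 63 on TPM, 253 with DESeq2, and 14 to 35 with libraries left out (35 without pcDNA4c mCsnk2a1 1). For the difference between constructs (4 calls) it was 2 with relative log expression scaling, 137 with no filter, 2 with at least 50 counts in 3 libraries, 9 with the block, 1 with voom, 16 on scaled CPM, 25 on TPM, 208 with DESeq2, and 2 to 16 with libraries left out. Between controls (14 calls) it was 71 with no filter, 26 on scaled CPM, 49 on TPM, 69 with DESeq2, and 11 to 20 with libraries left out. No pairing by replicate number was seen. Same-numbered deviations correlated between -0.0398 and 0.00873, and different-numbered ones between -0.0364 and 0.0535. With a biological coefficient of variation of 1.26 such values cannot exclude a pairing. The replicate block is given only here. Signs turned for Cplx3 with the shRNA (0.029 with the replicate block, 0.031 with voom, -0.44 to 0.52 with libraries left out) and with the vector (-0.88 to 0.12). In the difference between constructs they turned for Syp (-0.050 with voom, -0.35 to 0.34 with libraries left out), Cplx3 (-0.83 to 0.21), Cplx4 (-0.11 to 0.36) and Dlg4 (-0.16 to 0.87), and on TPM for Vamp2 (0.20), Stx3 (0.11) and Cplx3 (0.34). Between controls they turned for Cplx4 (-0.046 to 0.12), and on TPM for Syp (0.20), Vamp2 (0.052), Snap25 (0.22), Stx3 (0.023) and Cplx3 (0.083). The summed log2 ratio on TPM was 0.30 for the shRNA and 0.31 between controls. As a share of a gene's TPM in place of the level, differences turned to -6.71 percentage points for Slc17a7-201, -15.1 for Syp-201 and -12.2 for Vamp2-201 with the shRNA, and to -3.16 for Syp-201 and -16.2 for exon b of Snap25 with the vector. With libraries left out, which was added after seeing the data, the shRNA difference in TPM ranged from -9.58 to 12.5 for Syp-201, -0.33 to 12.2 for Vamp2-201, -2.53 to 7.21 for Cplx4-201 and -33.9 to 12.8 for exon a of Snap25, and the vector difference from -4.97 to 4.90 for the 3A type of Stx3. With 3 libraries a group, no exact permutation test of a single value can go below 0.1.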

Other observations

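Genes closely related to the release genes were measured as well. Slc17a6 (VGLUT2), a vesicular glutamate transporter of other retinal cells, averaged 31.2 ± 20.7 CPM in shRNA mCsnk2a1, with a range of 7.39 to 45.1, and had no count in any of the 3 shRNA Control libraries (edgeR adjusted p = 0.598). It averaged 0.146 ± 0.253 CPM in pcDNA4c mCsnk2a1 and 1.66 ± 2.41 CPM in pcDNA4c Control. Syn2 (synapsin 2) was at 0 in all 3 shRNA mCsnk2a1 libraries and averaged 22.3 ± 2.10 CPM in shRNA Control (edgeR adjusted p = 0.598). Rph3a (rabphilin) averaged 2.11 ± 1.96 CPM in pcDNA4c mCsnk2a1 and 27.4 ± 23.9 CPM in pcDNA4c Control (edgeR adjusted p = 0.568). Slc17a8 (VGLUT3) averaged 43.7 ± 21.5 CPM in shRNA mCsnk2a1 and 87.7 ± 53.7 CPM in shRNA Control. Vamp1, a second vesicle SNARE, averaged 26.1 ± 12.4 CPM in shRNA mCsnk2a1 and 72.5 ± 33.7 CPM in shRNA Control without overlap, the opposite side from Vamp2 (log2 difference -1.47, SE 0.87, edgeR adjusted p = 0.682). Cplx1 averaged 11.1 ± 15.9 CPM in shRNA mCsnk2a1 and 9.36 ± 8.96 CPM in shRNA Control (SD, n = 3 throughout).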
